A study of Mus musculus with 4 samples.

Results

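Chemokines of the CC family are small secreted proteins that carry a pair of adjacent cysteines near the start of the mature protein, and they draw leukocytes along a gradient by way of G protein-coupled receptors. Described here are 9 genes, chosen by name, of the 32285 genes measured: the chemokines *Ccl2*, *Ccl7*, *Ccl8*, *Ccl12*, *Ccl11*, *Ccl3* and *Ccl4*, and the receptors *Ccr2* and *Ccr1*. All 9 were detected. They were followed across cell classes of the fracture callus, with macrophages set against fibroblasts and other mesenchymal cells as sources, and serum arthritis set against control.

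The data were 4 single-cell RNA sequencing (scRNA-seq) libraries, made with Chromium 3′ chemistry, in which each captured mRNA molecule is counted once as a unique molecular identifier (UMI). The mice were male wild-type C57BL/6J animals, 3 months old, with a fracture of the right tibia. RA mice, a model of rheumatoid arthritis, were injected intraperitoneally with K/BxN serum, which carries arthritogenic antibodies, and control mice with the PBS vehicle. Callus was scraped along the periosteal surface at 4 or 7 days post fracture (dpf), pooled from 3 or 4 mice per library (the sources give both numbers) and digested with collagenase at room temperature. This gave 1 library each for control at 4 dpf, RA at 4 dpf, control at 7 dpf and RA at 7 dpf. With 1 library per group there was no replicate, no test between conditions was possible, and animal pool, preparation and condition cannot be told apart. Intervals are 95% intervals that cover counting error only.

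*Ccl2*, *Ccl7* and *Ccl12* encode monocyte chemoattractants that act through *Ccr2*, the receptor that lets inflammatory monocytes leave the marrow and enter injured tissue. *Ccl8* encodes a further member of the same gene cluster, known in mice as a ligand of *Ccr8*. *Ccl11* encodes eotaxin, which recruits eosinophils through *Ccr3*. *Ccl3* and *Ccl4* encode the macrophage inflammatory proteins, and *Ccl3* acts through *Ccr1* among other receptors. In repair tissue such chemokines are known from macrophages, fibroblasts and endothelial cells.

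The 7 chemokine genes lie in 2 groups on chromosome 11. On GRCm38 *Ccl2* (chr11:82035571-82037453), *Ccl7*, *Ccl11*, *Ccl12* and *Ccl8* (chr11:82115185-82116799) lie in this order on the plus strand within 81.2 kb. *Ccl3* (chr11:83647844-83649355, minus strand) and *Ccl4* (chr11:83662584-83664683, plus strand) lie within 16.8 kb of each other, and *Ccr1* and *Ccr2* within 151 kb on chromosome 9. Each chemokine gene has 3 exons, with 279 to 447 coding bases. To show the feature that names the family, the 42 coding bases (GENCODE M21) around the codons of the cysteine pair are printed 5′ to 3′, with these codons in capitals. Each coding sequence held exactly 1 such pair in frame.
Ccl2: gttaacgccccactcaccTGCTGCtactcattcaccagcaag
Ccl7: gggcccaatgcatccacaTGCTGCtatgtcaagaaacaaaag
Ccl8: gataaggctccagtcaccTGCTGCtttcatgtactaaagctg
Ccl12: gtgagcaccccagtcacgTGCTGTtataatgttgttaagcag
Ccl11: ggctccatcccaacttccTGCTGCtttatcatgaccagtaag
Ccl3: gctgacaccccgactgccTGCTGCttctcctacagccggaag
Ccl4: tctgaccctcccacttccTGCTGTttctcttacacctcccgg
The pair was written as TGC TGC in 5 genes and as TGC TGT in *Ccl12* and *Ccl4*, and the letters around it differed between genes. Over the coding sequence *Ccl2* and *Ccl7* shared 81.9% of 254 aligned bases, *Ccl8* and *Ccl12* 73.5% of 287, and *Ccl3* and *Ccl4* 76.5% of 264. Gaps were left out of these counts, and every pair of the 7 chemokine genes lay between 73.5% and 81.9%. Pairs across the 2 groups could be as alike, with 80.5% of 231 bases for *Ccl8* and *Ccl4*.

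The 250 bases before the start of *Ccl8* (chr11:82114935-82115184) and of *Ccl12* (chr11:82101595-82101844), plus strand of GRCm38.p6, are shown because these neighbouring genes had similar sources but differed between RA and control in the results that follow. They come from the RefSeq promoter table, which also held *Ccl3*, *Ccr2* and *Ccr1*. Capitals mark TATAAA and, in *Ccl8*, a match to GGGAAANC, a form of the site bound by NF-κB.
Ccl8: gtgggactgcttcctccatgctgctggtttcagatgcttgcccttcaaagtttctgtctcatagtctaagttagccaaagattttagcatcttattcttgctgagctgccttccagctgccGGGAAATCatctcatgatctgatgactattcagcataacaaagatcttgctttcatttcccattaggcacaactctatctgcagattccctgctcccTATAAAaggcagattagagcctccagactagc
Ccl12: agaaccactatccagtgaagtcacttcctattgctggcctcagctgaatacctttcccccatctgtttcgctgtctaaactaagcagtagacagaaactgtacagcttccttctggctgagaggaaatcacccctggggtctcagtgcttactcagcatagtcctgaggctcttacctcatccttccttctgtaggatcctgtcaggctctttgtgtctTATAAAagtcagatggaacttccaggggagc
TATAAA lay 32 to 27 bases before the start in *Ccl8* and 31 to 26 bases before it in *Ccl12*, and 12.4% of 32851 promoters of the table held it on either strand. GGGAAATC lay 129 to 122 bases before the start of *Ccl8*, and 5.23% of promoters held a match to GGGAAANC. A match to TTGNNNAA, a loose form of the C/EBP site, was present in *Ccl8*, *Ccl3*, *Ccr2* and *Ccr1* and in 33.3% of promoters. None of the 5 promoters held a match to the STAT site, the interferon-type repeat or TGANTCA, a form of the AP-1 site, which 5.85%, 2.98% and 6.75% of promoters held. All motifs were searched on both strands, and matches are letters in a fixed window, not sites.

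After the cell filter 25479 of 34038 barcodes remained, between 4110 and 8223 per library, with median depths of 16094 to 17632 UMIs per cell. Of these barcodes 66 occurred in more than 1 library. Scrublet called 2.32% of cells doublets (0.876% to 3.60% per library), which were kept. The 9 genes were left out of the variable genes used for clustering, and classes were named from marker genes, so that a class need not hold the same cells as one of that name elsewhere. The macrophage lineage joined Arg1 macrophage-like cells with a macrophage-like class led by *Cbr2* and *Mrc1*, and the mesenchymal lineage joined fibroblast-like, Pi16 fibroblast precursor-like, committed mesenchymal progenitor-like, tenocyte precursor-like, osteochondral progenitor-like and cycling cells. *C1qa* stood at 2383 CPM (UMIs per 1000000 UMIs of the class) in the former and 38.3 CPM in the latter, and *Col1a1* at 127 CPM and 14409 CPM. The class led by *Cbr2* and *Mrc1* carries the names of its leading markers. The gene that stood highest above other cells there was *Ccl8*, and *Ccl4*, *Ccl12* and *Ccl3* were among its 20 leading genes. Macrophages made up 42.05% and 33.8% of cells in control and RA at 4 dpf, and 23.8% and 13.9% at 7 dpf. Mesenchymal cells made up 18.2% and 19.9%, then 42.3% and 50.1%. Eosinophils, the cells that eotaxin recruits, formed no class: *Siglecf* and *Prg2* stayed at or under 1.08 CPM over all cells kept of any library. These levels cover only cells with at least 4000 UMIs and 2000 features. They do not tell whether the callus held eosinophils below these limits.

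Markers of each lineage were also found at a low level in the other. The 8 macrophage markers summed to 223, 248, 327 and 357 CPM in mesenchymal cells of control at 4 dpf, RA at 4 dpf, control at 7 dpf and RA at 7 dpf, or 2.42% to 3.10% of their level in macrophages, and none was at 0. The 6 mesenchymal markers summed to 156 to 791 CPM in macrophages, or 0.407% to 1.43% of their own level. A gene found in mesenchymal cells at 2.42% to 3.10% of its macrophage level is thus at the relative level of the macrophage markers themselves.

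Macrophages held the monocyte chemoattractants at the higher level in every library. *Ccl2* in macrophages stood at 501 CPM in control and 681 CPM in RA at 4 dpf, and at 218 and 483 CPM at 7 dpf, and in mesenchymal cells at 201, 193, 139 and 206 CPM in the same order. Both lineages were lowest in control at 7 dpf, and the mesenchymal level was 28.3% to 63.7% of the macrophage level of the same library. *Ccl7* had the same shape, with 417, 643, 171 and 523 CPM in macrophages and 166, 170, 82.6 and 163 CPM in mesenchymal cells, or 26.4% to 48.2%. For both genes the mesenchymal share of the macrophage level was thus above the 3.10% that the macrophage markers reached at most.

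*Ccl8* and *Ccl12* were more strongly set apart. *Ccl8* in macrophages stood at 2088 CPM in control and 1300 CPM in RA at 4 dpf, and at 1121 and 3064 CPM at 7 dpf, against 70.0, 61.7, 53.6 and 173 CPM in mesenchymal cells. Its highest library was RA at 7 dpf in both lineages, and its lowest was control at 7 dpf. The mesenchymal level was 3.35%, 4.75%, 4.79% and 5.63% of that in macrophages, above the macrophage markers in each library but by less than 3 percentage points. *Ccl12* in macrophages stood at 159, 234, 101 and 107 CPM, and in mesenchymal cells at 2.02, 1.33, 3.31 and 4.46 CPM. The mesenchymal level of *Ccl12* was 1.27% and 0.57% of that in macrophages in control and RA at 4 dpf, below the macrophage markers of the same libraries, and 3.28% and 4.15% at 7 dpf, above them. In RA at 7 dpf, 95.6% of the mesenchymal *Ccl12* UMIs lay in the 1% of cells with the most of them, of which 58.5% were doublet calls.

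*Ccl11* was the reverse case. It stood at 41.8, 40.3, 12.6 and 59.9 CPM in mesenchymal cells of control at 4 dpf, RA at 4 dpf, control at 7 dpf and RA at 7 dpf, and at no more than 1.02 CPM in macrophages of any library. Pericyte or smooth muscle-like cells, the contractile cells around vessels, held it at 82.2, 62.3, 128 and 148 CPM. The pericyte level was thus above the mesenchymal level in every library, and the mesenchymal level was lowest in control at 7 dpf.

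*Ccl3* and *Ccl4* were leukocyte genes. *Ccl3* in macrophages stood at 203, 291, 158 and 307 CPM, and *Ccl4* at 199, 365, 170 and 381 CPM. In mesenchymal cells neither passed 7.34 CPM in any library, which was 0.91% to 2.12% of the macrophage level. Lymphocyte-like cells held *Ccl4* at 139, 355, 154 and 141 CPM, above other myeloid cells in each library (64.2 to 161 CPM), and *Ccl3* at 39.2 to 133 CPM. In RA at 4 dpf 63.1% of the lymphocyte *Ccl4* UMIs lay in 1% of these cells. The receptors were leukocyte genes too. *Ccr2* in macrophages stood at 202, 183, 111 and 126 CPM, and *Ccr1* at 100, 99.6, 64.4 and 75.1 CPM, while in mesenchymal cells *Ccr2* did not pass 3.72 CPM and *Ccr1* did not pass 1.62 CPM. Lymphocyte-like cells held *Ccr2* at 182, 162, 224 and 268 CPM, above the macrophage level at 7 dpf, and *Ccr1* at no more than 24.1 CPM.

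Some cells of the vessels held *Ccl2* as well. Endothelial-like cells held it at 37.7 to 59.0 CPM and pericyte or smooth muscle-like cells at 126, 248, 152 and 154 CPM, while lymphatic endothelial-like cells reached 1170 CPM in RA at 4 dpf, in 34 cells. Few cells carried much of this, since 1% of all endothelial cells of that library held 61.9% of their *Ccl2* UMIs, with 324 in the highest cell. Of the 2 endothelial-like clusters, that led by *Adgrl4* held *Ccl2* at 87.4, 53.7, 71.7 and 61.3 CPM, with 10.5% doublet calls. The other, led by *Selp*, held 9.64, 12.4, 8.28 and 6.14 CPM. The 1% of endothelial cells with the most *Ccl2* carried macrophage markers at 1590, 61.2, 110 and 1803 CPM, against 195 to 306 CPM in the rest. Among mesenchymal classes *Ccl2* stood at 310, 232, 284 and 388 CPM in Pi16 fibroblast precursor-like cells, at 247, 190, 94.4 and 126 CPM in fibroblast-like cells and at 136, 198, 136 and 230 CPM in committed mesenchymal progenitor-like cells. The Pi16 fibroblast precursor-like level was above that of Arg1 macrophage-like cells at 7 dpf (158 CPM in control and 206 CPM in RA), and below it at 4 dpf (325 and 280 CPM). Osteochondral progenitor-like cells, which build cartilage and bone, stood at 6.88 CPM in control and 8.92 CPM in RA at 7 dpf, and had under 5 cells in each 4 dpf library.

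**Figure D1:**
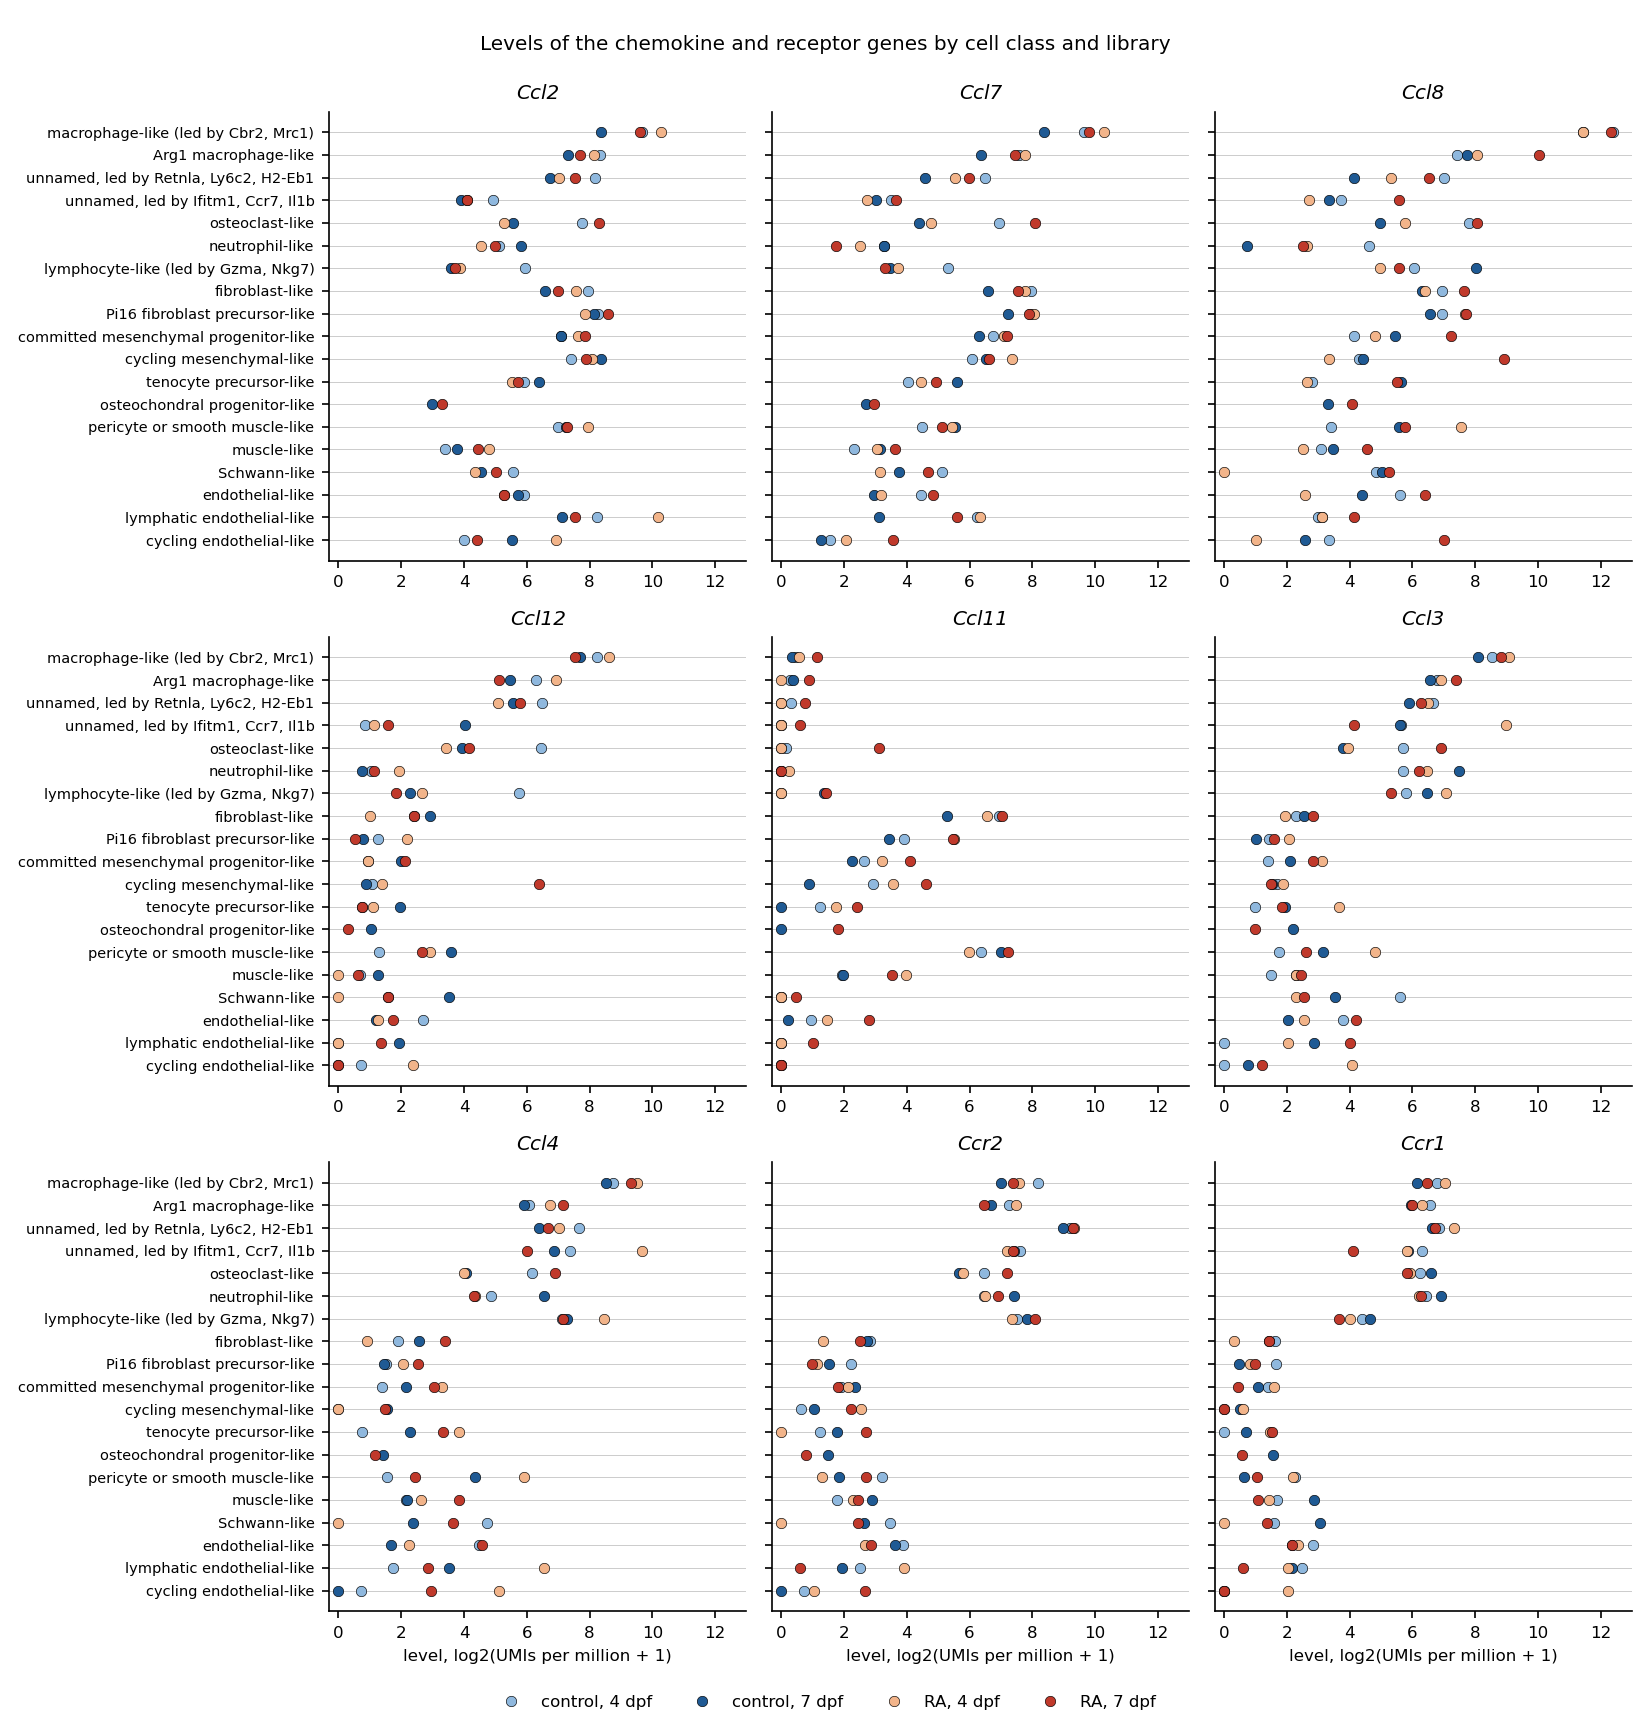
Level of each of the 9 genes (horizontal axis, log2 of CPM plus 1) in each cell class (vertical axis), with 1 point per library in classes of at least 20 cells there (blue, control; orange and red, RA; the darker shade is 7 dpf). *Ccl8* reached 5410 CPM in the macrophage-like class led by *Cbr2* and *Mrc1*, whereas *Ccl11* was highest in fibroblast-like and pericyte or smooth muscle-like cells.

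The number of cells and their UMIs per cell decide, with the level, which lineage supplied the transcripts of a callus library. Macrophages held 61.8% of *Ccl2* UMIs in control and 65.7% in RA at 4 dpf, but 25.6% and 21.6% at 7 dpf, when mesenchymal cells held 61.6% and 69.0%. For *Ccl7* the macrophage shares were 67.4%, 73.6%, 33.7% and 28.5%, and the mesenchymal shares 23.2%, 22.6%, 61.4% and 66.4%. Among the cells kept, the main source of both genes by UMIs was thus macrophages at 4 dpf and mesenchymal cells at 7 dpf in both conditions. The level in CPM stayed higher in macrophages. The cell filter kept 108438906 of 168210361 UMIs in control and 83405494 of 130168130 in RA at 4 dpf. At 7 dpf it kept 141714572 of 177131833 and 156567619 of 182259646. With a looser cell filter, shares of UMIs changed by up to 22.3 percentage points. The shares of *Ccl2* and *Ccl7* under it are not given here. *Ccl8* stayed with macrophages, at 92.8%, 91.3%, 81.6% and 67.3% of its UMIs, while the mesenchymal share was 2.69% and 5.04% at 4 dpf and 14.8% and 28.4% at 7 dpf. Within the macrophage lineage the class led by *Cbr2* and *Mrc1* alone held 88.1%, 80.3%, 71.5% and 55.3% of all *Ccl8* UMIs.

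*Ccl12* came from macrophages at 79.8%, 93.95%, 76.7% and 67.2% of its UMIs. *Ccl11* came from mesenchymal cells at 85.8%, 87.3%, 68.2% and 85.8%, with pericyte or smooth muscle-like cells at 11.6%, 7.77%, 30.1% and 11.8% and macrophages at no more than 0.68%. Fibroblast-like cells alone held 53.1% to 75.2% of *Ccl11* UMIs. Of the 7 chemokines, 6 had more macrophage than mesenchymal UMIs in each 4 dpf library, and 4 in each 7 dpf library. Macrophages held 62.2% to 82.3% of the UMIs of *Ccl3* and *Ccl4* in every library, and other myeloid cells 29.4% of each in RA at 4 dpf. *Ccr2* was shared between macrophages (59.2%, 45.3%, 38.0% and 33.0%) and other myeloid cells (36.5%, 49.5%, 49.6% and 45.4%), and lymphocyte-like cells held 12.2% in RA at 7 dpf. *Ccr1* UMIs lay in macrophages at 49.7% to 65.6% and in other myeloid cells at 26.1% to 45.4%.

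**Figure D2:**
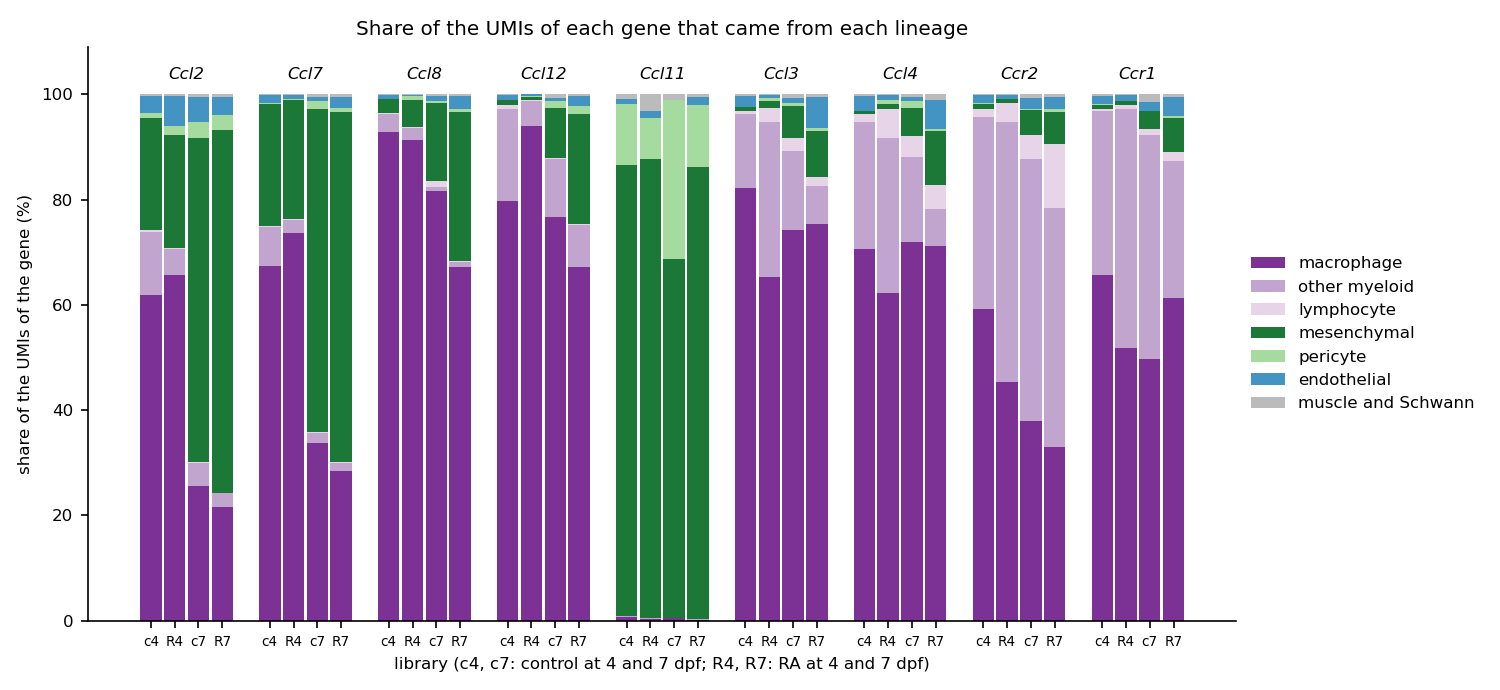
Share of the UMIs of each gene (vertical axis, percent) that came from each lineage (colours) in each library (horizontal axis; c4 and c7, control at 4 and 7 dpf; R4 and R7, RA at 4 and 7 dpf). The mesenchymal share of *Ccl2* was 21.4% and 21.6% at 4 dpf and 61.6% and 69.0% at 7 dpf, while *Ccl12*, *Ccl3* and *Ccl4* stayed mostly with macrophages.

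RA was then compared with control within each lineage. A gene was compared where both libraries together held at least 50 UMIs, and was counted as past 2-fold on log2(CPM + 1), a scale that understates changes of low genes. In macrophages at 4 dpf, 0 of the 8 genes compared were 2-fold higher or lower, beside 0.269% of all 12260 genes compared that were 2-fold higher and 0.595% that were lower. *Ccl11* was too low in macrophages to be compared. At 7 dpf, 4 of 8 were 2-fold higher in RA (*Ccl2*, *Ccl7*, *Ccl8* and *Ccl4*) and 0 lower, beside 0.999% higher and 0.316% lower of 11706 genes. In mesenchymal cells at 4 dpf 1 of 9 was 2-fold higher (*Ccl4*) and 0 lower, beside 0.792% and 0.827% of 14272 genes. At 7 dpf 2 of 9 were 2-fold higher (*Ccl8* and *Ccl11*) and 0 lower, beside 1.53% and 1.07% of 17362 genes. The members' median log2 ratio was 0.48 and 1.05 in macrophages at 4 and 7 dpf, and -0.06 and 0.56 in mesenchymal cells, while that of all genes compared was between -0.03 and 0.04. Each comparison rests on 1 library a side, and the 4 and 7 dpf comparisons share none.

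For *Ccl2* and *Ccl7*, both ligands of *Ccr2*, the ratio of RA to control was larger at 7 dpf. In macrophages *Ccl2* was 1.36-fold (1.33 to 1.39) at 4 dpf and 2.21-fold (2.13 to 2.30) at 7 dpf, and *Ccl7* 1.54-fold (1.51 to 1.58) and 3.05-fold (2.93 to 3.17). In mesenchymal cells *Ccl2* was 0.958-fold (0.922 to 0.996) and 1.48-fold (1.45 to 1.51), and *Ccl7* 1.02-fold (0.979 to 1.06) and 1.97-fold (1.91 to 2.02). The 7 dpf ratios were above 1 in both lineages, while the 4 dpf ratios were above 1 in macrophages and near 1 in mesenchymal cells. The mesenchymal *Ccl2* ratio at 4 dpf joins classes that differed in direction, by the levels given above. RA was lower in Pi16 fibroblast precursor-like and fibroblast-like cells, and higher in committed mesenchymal progenitor-like cells. *Ccl12* had another order, with 1.47-fold (1.42 to 1.53) in macrophages at 4 dpf and 1.06-fold at 7 dpf, where the interval (0.995 to 1.14) includes 1. In the macrophage-like class led by *Cbr2* and *Mrc1*, *Ccl2* was 1.55-fold and 2.39-fold and *Ccl7* 1.55-fold and 2.68-fold at 4 and 7 dpf, and in Arg1 macrophage-like cells *Ccl2* was 0.864-fold and 1.30-fold and *Ccl7* 1.13-fold and 2.15-fold. With the 3 macrophage clusters weighted equally, the 4 dpf log2 ratios of *Ccl2* and *Ccl7* changed sign, from 0.44 to -0.13 and from 0.63 to -0.04, and at 7 dpf that of *Ccl2* was 0.57 in place of 1.14, short of 2-fold. In Arg1 macrophage-like cells that of *Ccl12* at 4 dpf went from 0.62 to -0.17 in the same way. There the larger cluster held *Ccl12* at 88.8 CPM in control and 157 CPM in RA, and the smaller at 48.2 and 21.2 CPM. *Ccl12* was lower in RA at 7 dpf in both classes (0.908-fold, 0.842 to 0.979, and 0.781-fold, 0.670 to 0.908), while the class with the higher *Ccl12* level made up 47.9% of RA macrophages and 37.3% of control macrophages.

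*Ccl8* had ratios in opposite directions at 4 and 7 dpf in macrophages, 0.623-fold (0.614 to 0.631) and then 2.73-fold (2.69 to 2.78). The class led by *Cbr2* and *Mrc1* held 5410 CPM in control and 2768 CPM in RA at 4 dpf, and 2751 and 5208 CPM at 7 dpf, giving 0.512-fold (0.504 to 0.519) and 1.89-fold (1.86 to 1.93). Arg1 macrophage-like cells held far less, at 169, 267, 216 and 1053 CPM, and there RA was higher at both times, 1.58-fold (1.51 to 1.66) and 4.89-fold (4.68 to 5.10). Of the 2 clusters of that class, 1 held 220, 357, 295 and 1540 CPM, higher in RA at both times. The other held 39.5, 27.8, 10.6 and 55.3 CPM, lower in RA at 4 dpf and higher at 7 dpf, as in the class led by *Cbr2* and *Mrc1*. Clustered more finely, at a resolution of 1, a resident macrophage-like class of 1092 cells held *Ccl8* at 8064, 4993, 5478 and 8965 CPM, in the same order of libraries.

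In mesenchymal cells *Ccl8* was 0.881-fold (0.824 to 0.942) at 4 dpf and 3.22-fold (3.11 to 3.33) at 7 dpf. Fibroblast-like cells held 122 CPM in control and 84.5 CPM in RA at 4 dpf, then 77.5 and 200 CPM at 7 dpf, or 0.691-fold and 2.57-fold. Committed mesenchymal progenitor-like cells held 16.6, 26.9, 42.7 and 148 CPM, or 1.62-fold and 3.46-fold, and Pi16 fibroblast precursor-like cells, the *Pi16*-marked fibroblasts thought to replenish other fibroblasts, 123, 205, 93.8 and 207 CPM, or 1.67-fold and 2.21-fold. All 3 classes were therefore higher in RA at 7 dpf. Part of the mesenchymal *Ccl8* lay in few cells that also carried macrophage markers. In RA at 7 dpf, the 41 cells with the most *Ccl8* UMIs (the top 1%) held 27.3% of them, 36.6% of these cells were doublet calls, and their macrophage markers summed to 2303 CPM against 329 CPM in the rest. Without the top 1% of cells in each library the level was 57.4, 49.7, 25.6 and 127 CPM, and RA at 7 dpf was still the highest.

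*Ccl11* differed most between RA and control in the mesenchymal lineage at 7 dpf among the 9 genes, at 4.77-fold (4.47 to 5.10), after 0.962-fold (0.884 to 1.05) at 4 dpf. Fibroblast-like cells held 122, 94.2, 38.2 and 131 CPM, or 0.771-fold (0.702 to 0.847) and 3.42-fold (3.17 to 3.69). Their low library was control at 7 dpf, while RA at 7 dpf was near control at 4 dpf. Pi16 fibroblast precursor-like cells held 13.9, 44.0, 9.72 and 43.9 CPM, with RA higher at both times, 3.15-fold (2.37 to 4.21) and 4.51-fold (3.65 to 5.63). Committed mesenchymal progenitor-like cells were at 5.17, 8.17, 3.81 and 16.1 CPM, and at 7 dpf 4.21-fold (3.47 to 5.15). In pericyte or smooth muscle-like cells RA was 0.757-fold (0.578 to 0.987) at 4 dpf and 1.16-fold (1.03 to 1.30) at 7 dpf, so the higher *Ccl11* of RA at 7 dpf was of a larger size in the 3 mesenchymal classes than in these cells. The 41 mesenchymal cells with the most *Ccl11* in RA at 7 dpf held 16.2% of it, 0 of them were doublet calls, and their macrophage markers summed to 161 CPM against 359 CPM in the rest. Fibroblast-like cells, the class with the highest mesenchymal *Ccl11*, made up 29.7% of mesenchymal cells in control and 39.0% in RA at 7 dpf.

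*Ccl3* and *Ccl4* were higher in RA macrophages at both times, *Ccl3* 1.43-fold (1.38 to 1.48) and 1.94-fold (1.85 to 2.03), and *Ccl4* 1.83-fold (1.78 to 1.90) and 2.24-fold (2.15 to 2.34). Both macrophage classes had ratios above 1 for both genes at both times, from 1.09-fold for *Ccl3* in Arg1 macrophage-like cells at 4 dpf to 2.39-fold for *Ccl4* in the same cells at 7 dpf. Within the Arg1 macrophage-like class the smaller cluster held *Ccl4* at 23.6 CPM in control and 22.5 CPM in RA at 7 dpf. With clusters weighted equally the 7 dpf log2 ratio of *Ccl4* was 0.72 in place of 1.16 in the lineage and 0.69 in place of 1.24 in this class, short of 2-fold in both. In an unnamed myeloid class led by *Ifitm1*, *Ccr7* and *Il1b* the direction differed between the times. There *Ccl3* stood at 49.1 CPM in control and 504 CPM in RA at 4 dpf, and at 48.1 and 16.6 CPM at 7 dpf, or 10.3-fold (8.97 to 11.8) and 0.345-fold (0.225 to 0.518). *Ccl4* in that class stood at 167, 819, 117 and 62.9 CPM, or 4.91-fold (4.54 to 5.31) and 0.539-fold (0.430 to 0.673). RA at 4 dpf was the highest library in this class of 380, 234, 191 and 148 cells. There 1% of the cells held 29.7% of *Ccl3* and 24.96% of *Ccl4* UMIs, with 255 and 400 UMIs in the highest cell, and in control at 4 dpf 69.7% and 43.6%. At a resolution of 1 a class of 80 cells led by *Mcpt8*, *Prss34* and *Il4*, genes known from basophils, held *Ccl3* at 2116 CPM and *Ccl4* at 3218 CPM over all libraries. The 2-fold difference of mesenchymal *Ccl4* at 4 dpf lay between 1.82 CPM in control and 5.17 CPM in RA, where 8 cells held 76.6% of its UMIs and carried macrophage markers at 3896 CPM against 223 CPM in the rest. Without the top 1% of cells it stood at 1.00 and 1.22 CPM.

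The receptors differed less. *Ccr2* in RA macrophages was 0.905-fold (0.870 to 0.941) at 4 dpf and 1.13-fold (1.06 to 1.20) at 7 dpf, and *Ccr1* 0.996-fold (0.942 to 1.05) and 1.17-fold (1.08 to 1.27). The highest *Ccr2* lay in an unnamed class led by *Retnla*, *Ly6c2* and *H2-Eb1*, genes of monocytes and antigen-presenting cells, at 593, 639, 498 and 629 CPM. *Ccr2* there was 1.08-fold and 1.26-fold in RA, and *Ccr1*, at 114, 160, 97.7 and 104 CPM, was 1.40-fold and 1.07-fold. This class held 20.8%, 31.8%, 36.7% and 35.2% of all *Ccr2* UMIs. Its own *Ccl2* stood at 286, 128, 106 and 184 CPM. At a resolution of 1 a monocyte-like class of 487 cells held *Ccr2* at 692, 720, 570 and 694 CPM. Neutrophil-like cells held *Ccr1* at 73.7 to 119 CPM.

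**Figure D3:**
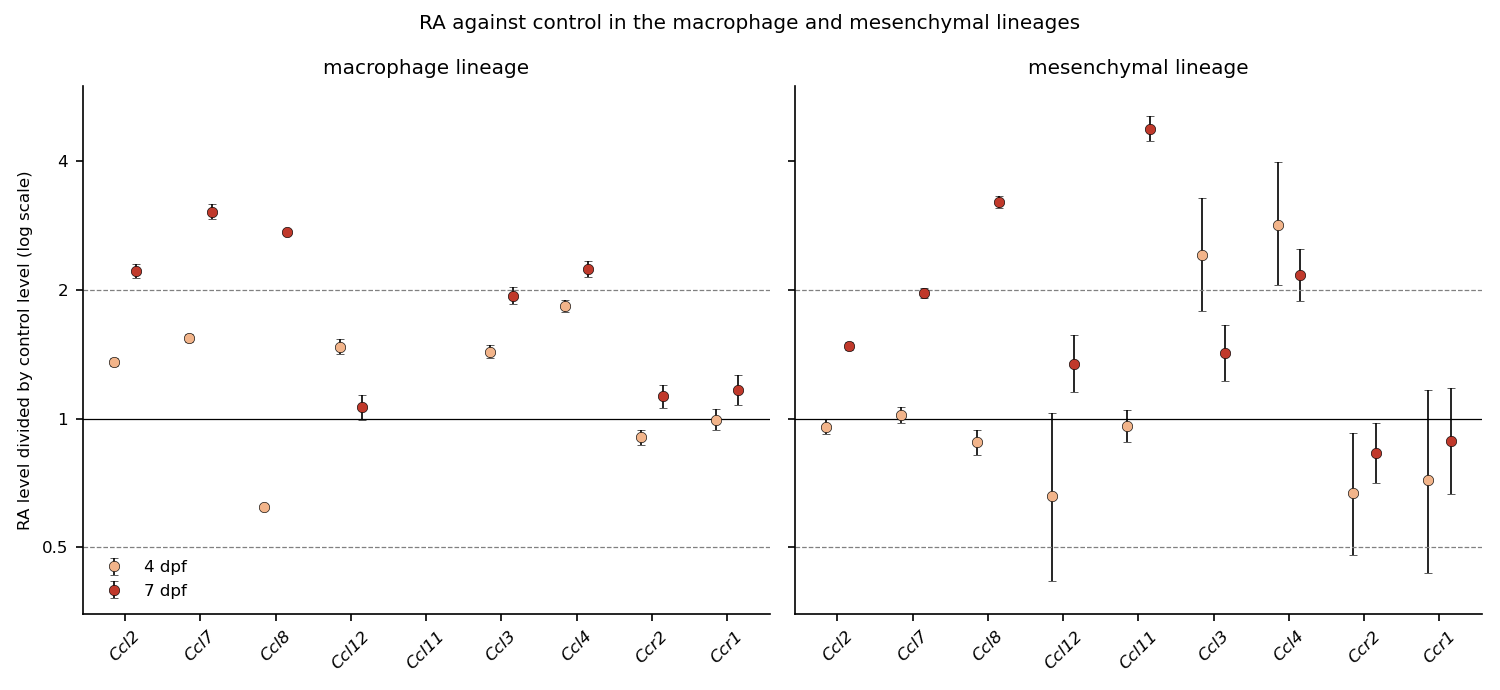
Ratio of the RA level to the control level (vertical axis, log scale; bars, 95% counting intervals) of each gene at 4 dpf (light) and 7 dpf (dark) in the macrophage lineage (left) and the mesenchymal lineage (right); dashed lines mark 2-fold, and *Ccl11* was too low in macrophages to be shown. *Ccl8* in macrophages lay at 0.623 at 4 dpf and 2.73 at 7 dpf, and mesenchymal *Ccl11* at 0.962 and 4.77.

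From 4 to 7 dpf, summed over each lineage, *Ccl2*, *Ccl7* and *Ccl8* were lower in both lineages of control callus, and *Ccl8* was higher in both lineages of RA callus. In control macrophages *Ccl2* was 0.435-fold, *Ccl7* 0.412-fold, *Ccl8* 0.537-fold and *Ccl12* 0.636-fold. Of the 8 genes compared 2 were 2-fold lower (*Ccl2* and *Ccl7*) and 0 higher, beside 0.37% lower and 0.974% higher of all genes. In RA macrophages *Ccl2* was 0.709-fold, *Ccl7* 0.813-fold, *Ccl8* 2.36-fold and *Ccl12* 0.459-fold, and 1 gene was 2-fold higher (*Ccl8*) and 1 lower (*Ccl12*), beside 3.24% and 0.926%. In control mesenchymal cells *Ccl11* was 0.300-fold (0.276 to 0.326) and *Ccl7* 0.497-fold, while *Ccl2* was 0.692-fold and *Ccl8* 0.766-fold. The *Ccl8* log2 ratio there went from -0.38 to 0.65 with clusters weighted equally, and the committed mesenchymal progenitor-like level, given above, was higher at 7 dpf. *Ccl11* and *Ccl7* were the 2 of 9 genes that were 2-fold lower, beside 1.41% lower and 1.88% higher of all genes, with 0 higher. The *Ccl7* call, at a log2 ratio of -1.001, was lost under 5 alternatives (-0.10 with clusters weighted equally), and that of *Ccl11* went from -1.66 to -0.92 with the looser cell filter. In RA mesenchymal cells *Ccl11* was 1.49-fold (1.39 to 1.59) and *Ccl8* 2.80-fold, and *Ccl8* and *Ccl12* were 2-fold higher and 0 lower, beside 1.66% and 1.26%. With the looser cell filter the *Ccl11* log2 ratio there went from 0.56 to 1.23, past 2-fold. The *Ccl12* call, a log2 ratio of 1.23, was lost under 4 alternatives, at 0.35 to 0.93. It stayed past 2-fold with doublets left out, although the cells with the most *Ccl12* in RA at 7 dpf held many doublet calls. These comparisons use the same 4 libraries as those of RA with control and are not independent of them.

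The shares of cells with a UMI were taken with each cell thinned to 4000 UMIs, because median depth was 12610 UMIs in macrophages and 25399 UMIs in mesenchymal cells. *Ccl8* was found in 35.8% and 30.5% of macrophages in control and RA at 4 dpf and in 31.6% and 51.1% at 7 dpf, and in 17.1%, 14.1%, 9.33% and 25.4% of mesenchymal cells. Muscle-like cells, taken as the class for background, had a *Ccl8* UMI in 1.72% to 4.46% of cells at a median depth of 13538 UMIs. Whether muscle-like cells make some of these transcripts themselves was not tested. The *Ccl8* shares followed the order of the levels in mesenchymal cells, and in macrophages the lowest share was RA at 4 dpf although the lowest level was control at 7 dpf, so that no order of these 2 libraries is read from the shares. Without thinning the *Ccl8* shares were 38.1%, 37.9%, 46.5% and 57.6% in macrophages of RA at 4 dpf, control at 7 dpf, control at 4 dpf and RA at 7 dpf. *Ccl2* was found in 49.0%, 49.5%, 30.9% and 39.4% of macrophages and in 18.1% to 26.6% of mesenchymal cells, against 2.92% to 6.03% of muscle-like cells. *Ccl11* was found in 9.85%, 11.9%, 3.79% and 14.2% of mesenchymal cells and in 12.3% to 23.5% of pericyte or smooth muscle-like cells. Its share was at most 0.17% in macrophages and 0.19% in other myeloid cells, but reached 6.03% in muscle-like cells of RA at 4 dpf. The muscle-like share is therefore not read as background for *Ccl11*. *Ccl3*, *Ccr2* and *Ccr1* were found in at most 1.45% of mesenchymal cells of any library, within the shares in muscle-like cells (0% to 1.95%), and were read as background there. *Ccl12* was found in 0.49% to 1.11% of mesenchymal cells and in at most 0.32% of muscle-like cells.

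**Figure D4:**
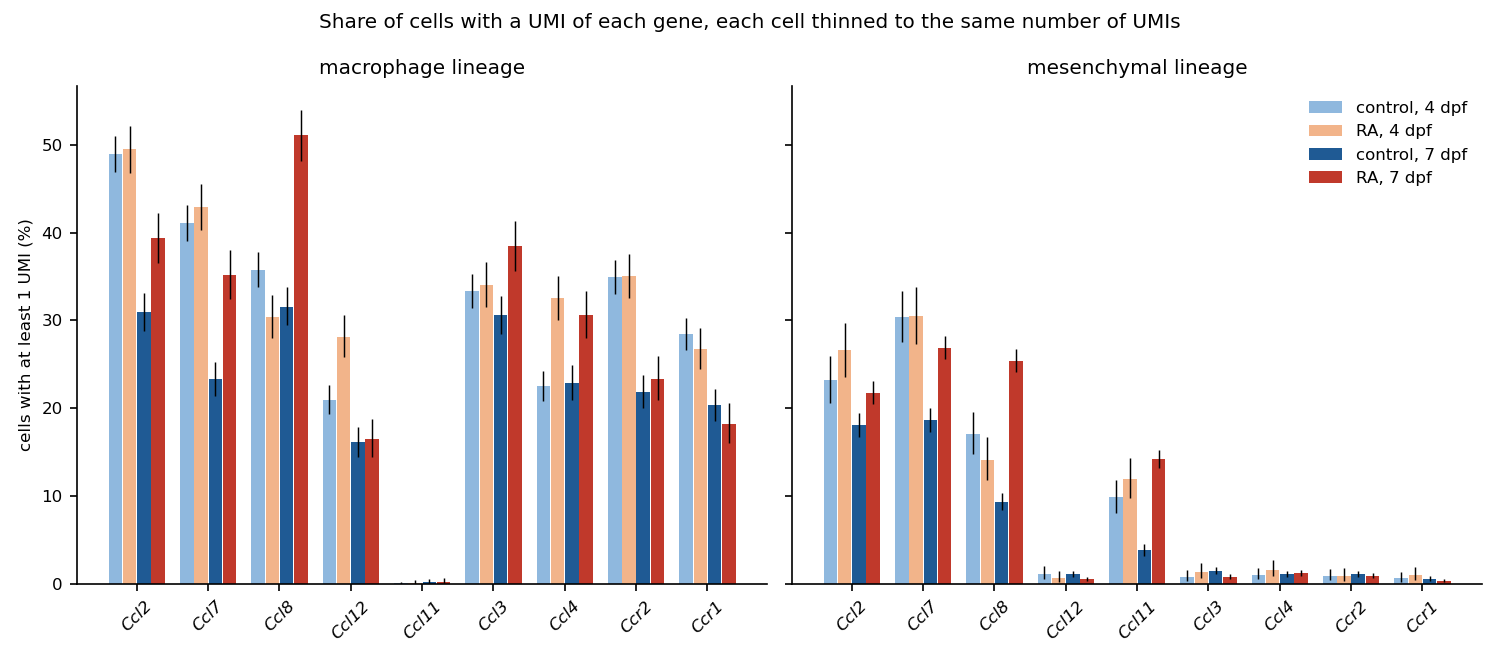
Share of cells with at least 1 UMI of each gene (vertical axis, percent; bars, 95% binomial intervals), each cell thinned to 4000 UMIs, in macrophages (left) and mesenchymal cells (right) of the 4 libraries. *Ccl8* was found in 51.1% of macrophages in RA at 7 dpf, and *Ccl11* in at most 0.17% of macrophages.

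Genes of a pair were often found in the same cells. *Ccl2* was found in 72.8% to 80.2% of macrophages with *Ccl7* and in 18.2% to 28.4% of those without it, over the 4 libraries, and in mesenchymal cells in 41.7% to 46.2% and 12.5% to 17.99%. *Ccl3* was found in 55.6% to 66.9% of macrophages with *Ccl4* and in 20.6% to 26.0% of those without. *Ccl8* was found in 53.7% to 75.1% of macrophages with *Ccl12* and in 21.3% to 46.3% of the others. *Ccl2* and *Ccl11* gave no such contrast in mesenchymal cells, where *Ccl2* was found in 20.4% to 25.8% of cells with *Ccl11* and in 17.9% to 26.7% of those without. *Ccr1* was found in 30.0% to 34.7% of macrophages with *Ccr2* and in 14.4% to 25.1% of those without. These are descriptions of cells that share a library and a depth.

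Over whole libraries, the level of a gene reflects both the level in each class and the mix of classes. For *Ccl8* the RA to control ratio over all cells was 0.485 at 4 dpf and 1.90 at 7 dpf, while control levels combined with the RA mix of classes would give 0.874 and 0.847. For *Ccl11* it was 0.976 and 4.32, against 1.07 and 1.46 from the mix alone. At 7 dpf *Ccl2* was 1.504 against 1.03 from the mix, and *Ccl7* 2.07 against 1.06. *Ccr2* and *Ccr1*, which macrophages and other myeloid cells hold, were 0.745 and 0.543 over all cells, close to the 0.675 and 0.565 that the mix alone gives. *Ccl3* and *Ccl4* were 1.09 and 1.30, against 0.709 and 0.772.

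To describe which genes had the most similar pattern, levels were correlated over 64 combinations of class and library, which share libraries and so carry no p. *Ccl2* was most like *Ccl7* (r = 0.90), then *Adam9* (0.83) and *Ang* (0.82), and *Ccl7* most like *Ccl2*, then *Lgals3bp* and *Ang* (0.85 each). *Ccl8* was like *Ccl7* (0.81) and *Fcna* (0.79), and *Ccl12* like *Siglec1* (0.91), *Slc39a12* and *Fcrls* (0.90 each). *Ccl11* stood with the fibroblast genes *Agtr1a* (0.94), *Pla2r1* (0.92) and *Pi15* (0.90), and had r = -0.40 with *Ccl3* and -0.47 with *Ccr1*. *Ccl3* was most like *Ccl4* (0.95), *Osm* and *Tnf* (0.94 each), inflammatory cytokine genes, and *Ccl4* like *Ccl3*, then *Tnf* and *5430427O19Rik* (0.92 each). *Ccr2* was most like *Naip5*, *Coro1a* and *Arhgap30* (0.97 each), and *Ccr1* like *Ptpn6*, *Nfam1* and *Tnfrsf13b* (0.98 each). With a pseudocount of 1 CPM in place of 10 CPM, most of the 3 most similar genes were replaced for 5 of the 9 genes. For *Ccr2* they became *Ptprc*, *Bin2* and *Cd52*, and for *Ccl12* they became *C1qb*, *C1qa* and *C1qc*.

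Other genes of the chemokine system differed gene by gene. Their counts past 2-fold stand beside the shares of all genes given above for each lineage and time (0.269% to 1.53%). In macrophages at 7 dpf 2 of 7 other CC chemokine genes compared were 2-fold higher in RA and 0 lower: *Ccl5*, a T cell and natural killer cell chemokine, at 2.57-fold, and *Ccl21a*, a lymphatic chemokine, at 0.881 CPM in control and 27.1 CPM in RA. Over all libraries *Ccl5* stood at 2576 CPM in lymphocyte-like cells, and *Ccl21a* at 8576 CPM in lymphatic endothelial-like cells. The part of their RNA in the macrophage values, and in the mesenchymal *Ccl5* call given below, was not tested. All 7 had ratios above 1, with a median log2 ratio of 0.46, and the share of all genes with a ratio above 1 is not given here. At 4 dpf 1 of 6 was lower, *Ccl24*, a further eotaxin, at 0.258-fold (40.3 CPM in control and 10.4 CPM in RA). *Ccr3*, the receptor of the eotaxins, was the 1 of 4 other CC receptor genes compared that was 2-fold higher at 4 dpf, at 1.54 CPM in control and 4.22 CPM in RA macrophages, while 0 of 3 passed at 7 dpf. In mesenchymal cells the atypical receptors, which bind chemokines without signalling through G proteins, had 3 of 4 genes 2-fold lower in RA at 4 dpf. The same 3 genes were 2-fold higher at 7 dpf. These were *Ackr1* (0.245-fold and 2.41-fold), *Ackr2* (0.210-fold and 5.13-fold) and *Ackr3* (0.440-fold and 2.15-fold), and *Ackr3* stood at 345, 152, 138 and 296 CPM. *Ackr1* was highest in endothelial-like cells, at 204 CPM, and *Ackr2* in lymphatic endothelial-like cells, at 63.0 CPM. Pi16 fibroblast precursor-like cells held the highest *Ackr3*, at 618 CPM, and *Ackr2* at 4.86 CPM. They made up 19.8% and 10.4% of mesenchymal cells in control and RA at 4 dpf, and 11.4% and 19.2% at 7 dpf. The part of this mix of classes in the ratios of the atypical receptors was not tested. Of the other CC chemokines 2 of 7 were 2-fold higher in mesenchymal cells at 4 dpf (*Ccl5* and *Ccl19*) and 1 of 10 at 7 dpf, with 0 lower, and *Ccl19*, a lymphoid chemokine, was 2.46-fold and 4.85-fold.

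Genes that answer handling or inflammation were set beside the 9 genes as well. Their counts past 2-fold are to be read against the same shares of all genes. Those shares do not apply to counts of ratios above 1. Immediate early genes, which respond within minutes to many stimuli and to tissue dissociation, had ratios above 1 in 11 of 11 genes in RA macrophages at 7 dpf (median log2 ratio 0.36), with *Egr1* 3.32-fold, *Hspa1a* 2.36-fold and *Hspa1b* 2.42-fold. In mesenchymal cells at 7 dpf it was 11 of 11 too, with a median of 0.49 and 0 past 2-fold. Of the NF-κB targets 0 of 9 were past 2-fold in macrophages at either time, with a median of 0.46 at 7 dpf, and in mesenchymal cells at 7 dpf *Il6*, a cytokine of the acute phase, was 2.41-fold, 1 of 10. Interferon targets had a median of 0.37 in macrophages at 4 dpf, with 9 of 9 above 1, and of -0.27 at 7 dpf, with 1 of 9 above 1. Of the type 2 genes, *Retnla*, a target of interleukin signalling in macrophages, was 0.108-fold in macrophages and 0.107-fold in mesenchymal cells at 7 dpf. Over all libraries it stood at 234 CPM in the unnamed class that it leads, and at no more than 23.6 CPM in any other class. That class made up 5.54% of cells in control and 2.94% in RA at 7 dpf. The part of its RNA in these 2 ratios was not tested. *Tslp*, a cytokine of type 2 inflammation, was 4.08-fold in macrophages at 7 dpf. The part of handling in the higher chemokine levels of RA at 7 dpf was not tested.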

How the data were processed

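The data were 4 scRNA-seq libraries of mouse fracture callus, 1 per condition and time point. As deposited, each library was a table of UMI counts per gene and barcode, and the authors had kept the barcodes called as cells. The submitters' processing notes name Cell Ranger 7.0.1 and mm10. The deposited counts were whole numbers and unscaled.

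The cell filter took its limits from the study's methods, with 4000 to 50000 UMIs, a mitochondrial share of 8% or less, and 2000 to 7000 features. After it the libraries held 83405494 to 156567619 UMIs each. Clustering used Seurat 5.3.0 in R 4.3.3 (integration by canonical correlation, 30 anchor dimensions, 2000 variable genes without the 9 genes and the other listed chemokine genes, 15 principal components, resolution 0.5). Marker lists named most clusters where the mean log2 score reached 1, stood 0.5 or more above the next list, and 3 or more markers were detected. With a smaller lead, a lineage name was given where both lists were of the same lineage. This held for the class led by *Cbr2* and *Mrc1* (2.71 and 2.53) and lymphocyte-like cells (4.38 and 3.95). Cycling classes were named by cycling genes, with a lower score of 0.848 in mesenchymal cells. The cluster led by *Ifitm1* met the limits but stayed unnamed, as more leading genes marked another lineage. These limits were fixed with the clusters in view. Doublets were called with Scrublet (scanpy 1.11.5) and kept. The 592 doublet calls were left out as an alternative.

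UMIs were summed per class and library and given as CPM. Levels have exact Poisson intervals, shares of cells exact Clopper-Pearson intervals, and ratios the exact conditional interval, all at 95% and covering counting error only. Ratios were compared for genes with 50 or more UMIs summed over the pair of libraries, in classes of 50 or more cells in each, on log2 with a pseudocount of 1 CPM. Likeness was Pearson's r of log2(CPM + 10) over class and library. The calculation was tested on simulated data. Python 3.11.15, numpy 2.4.6, scipy 1.17.1, pandas 2.3.3 and matplotlib 3.10.9 were used. Coding sequences and positions come from GENCODE M21 (GRCm38), and promoters from RefSeq (GRCm38.p6).

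The 9 genes, the gene lists, the markers and the alternatives were chosen with earlier results of these data known. Named genes were the 9 genes, the genes of the lists, class markers, and the 3 genes most like each of the 9, and genes that lead a class or cluster were picked with their values in view. Not all genes named by this rule are reported here. Alternatives tried were a looser cell filter (at least 1000 UMIs, 500 features and at most 15% mitochondrial UMIs), a resolution of 0.25 or 1, no integration, removal of doublets, the listed genes allowed among the variable genes, TMM scaling, a pseudocount of 10 CPM, the mean over cells of each cell's CPM, free RNA subtracted, clusters weighted equally, a minimum of 10 UMIs, no thinning, and a pseudocount of 1 CPM for likeness. The other experiments of the study were not analysed here.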

Additional observations from a re-analysis of the deposited data

Results flagged for a closer look

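The results listed here were singled out because the difference between RA and control was at least 1.5-fold in opposite directions at 4 and 7 dpf, among 10 units: the macrophage and mesenchymal lineages, 5 of their classes, the unnamed myeloid classes led by *Ifitm1* and by *Retnla*, and all cells together. In each case the difference between the times was not tested, since every ratio rests on 1 library a side.

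*Ccl8* was lower in RA at 4 dpf and higher at 7 dpf. In the macrophage lineage its ratio of RA to control was 0.623 at 4 dpf and 2.73 at 7 dpf, and in the macrophage-like class led by *Cbr2* and *Mrc1* it was 0.512 and 1.89. Over all cells it was 0.485 and 1.90. In the class led by *Retnla*, *Ly6c2* and *H2-Eb1* it was 0.305 and 5.55, and in the class led by *Ifitm1*, *Ccr7* and *Il1b* 0.457 and 5.08. In the class led by *Retnla* 53.2% to 88.8% of *Ccl8* UMIs lay in 1% of its cells, so these ratios rest on few cells.

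*Ccl2* and *Ccl7* in the class led by *Retnla* had the same order, with *Ccl2* at 0.448 and 1.74 and *Ccl7* at 0.510 and 2.75. The opposite order was seen for *Ccl3*, at 10.3 and 0.345, and *Ccl4*, at 4.91 and 0.539, in the class led by *Ifitm1*, where RA at 4 dpf was the high library.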

How the results depend on the processing

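No paired analysis was possible because each group has 1 library, and leaving out a library leaves no comparison. Of 218 log2 ratios of the 9 genes, 213 kept their sign under TMM scaling, 212 with free RNA subtracted, 218 with a pseudocount of 10 CPM, 204 with the mean over cells and 202 with doublets left out. Clusters weighted equally kept the sign in 83 of 100, and the looser cell filter in 57 of 68. Of 52 values past 2-fold, 35 stayed past it with a pseudocount of 10 CPM, 39 with doublets left out and 43 with the mean over cells, and 16 of 23 did with clusters weighted equally. *Ccr2* in fibroblast-like RA cells, 7 against 4 dpf, went from 1.18 to -0.59 with doublets left out, and mesenchymal *Ccl3* in RA against control at 7 dpf from 0.41 to -0.41. The 4 genes 2-fold higher in RA macrophages at 7 dpf were 2 with the mean over cells and 2 with clusters weighted equally. The 1 gene higher in mesenchymal cells at 4 dpf was 0 with the looser cell filter, resolution 1, doublets left out, a pseudocount of 10 CPM or clusters weighted equally, and 2 without integration or with the mean over cells. The 2 genes higher in mesenchymal cells at 7 dpf were 4 with free RNA subtracted. The cause of these changes was not tested. Counts of all genes past 2-fold stayed within 1.5-fold under TMM scaling and a minimum of 10 UMIs. With the looser cell filter, 72 shares of UMIs changed by a median of 2.89 percentage points and by 22.3 points at most. Their largest change was 9.90 points with doublets left out, 5.54 without integration and 2.91 with free RNA subtracted. With 1 pool per condition, differences between mice cannot be seen at any depth, and genes near the foreign marker level in mesenchymal cells are the least certain.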

Other observations

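Some high levels rested on few cells. Pericyte or smooth muscle-like cells of RA at 4 dpf held *Ccl8* at 185 CPM against 9.62, 47.3 and 53.0 CPM in control at 4 dpf, control at 7 dpf and RA at 7 dpf, but 98.8% of these UMIs lay in 1% of the 73 cells, with 252 UMIs in the highest cell. At a resolution of 1 an unnamed class of 155 cells led by *Apod*, *Tenm2* and *Cldn1* held *Ccl11* at 246 CPM and *Ccl8* at 623 CPM over all libraries. Osteoclast-like cells held *Ccl2* at 214, 37.6, 45.9 and 313 CPM in control at 4 dpf, RA at 4 dpf, control at 7 dpf and RA at 7 dpf, the last in 34 cells. In endothelial cells of RA at 7 dpf, 13 cells held 85.7% of the *Ccl8* UMIs, and 100% of them were doublet calls.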
